A study of Mus musculus with 48 samples.

Results

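The regions described here are 3004 long stretches of histone H3 lysine 27 acetylation (H3K27ac) in control neurons of the mouse hippocampus that also carried H3 lysine 4 monomethylation (H3K4me1) and lacked H3 lysine 4 trimethylation (H3K4me3). They were chosen from the peak lists of the Control libraries. Overlapping H3K27ac peaks of the 3 Control libraries on chromosomes 1 to 19 were merged into 209814 regions, of which 79964 had a peak in all 3 libraries. A mean covered length of at least 2000 bp per Control library left 11245 regions, and an overlapping peak in all 4 H3K4me1 Control libraries left 11157. Of these, 8153 were left out because an H3K4me3 Control peak overlapped them, and the 3004 that remained, 3.76% of the 79964, are called members below. Positions are given on mm10 (GRCm38), counted from 1. Because the Control libraries of H3K27ac, H3K4me1 and H3K4me3 chose the members, these 3 marks are described without a test, and the tests concern H3K9 acetylation (H3K9ac) and RNA.

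H3K27ac is deposited by the acetyltransferases CBP and p300 at active promoters and active enhancers. H3K4me1 marks enhancers both before and during their activity, while H3K4me3 marks promoters of active genes. Unusually long enhancers, called stretch enhancers or super-enhancers, are known to lie near genes that define a cell type, which in CA pyramidal neurons include genes of glutamate receptors and of the dendritic spine. Setd1b is one of the catalytic subunits of COMPASS-type complexes, which methylate H3 at lysine 4.

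The series compared Setd1b conditional knockout (cKO) with control C57BL/6J mice of 4 to 6 months, using 30 ChIP-seq libraries of sorted, fixed neuronal nuclei from the hippocampal CA region and 18 RNA-seq libraries. H3K27ac was profiled in 4 cKO and 3 Control libraries, H3K4me1 and H3K4me3 in 4 of each, and H3K9ac in 3 cKO and 4 Control libraries. RNA came from CA neurons (3 libraries of each genotype) and from whole CA tissue (6 of each). The labels name neither the floxed allele nor the Cre driver, so the cells in which Setd1b was removed are not given in the sources used here, and they do not say which libraries came from separate animals, so p-values measure the spread between these libraries.

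ChIP libraries held 24.4 to 41.6 M tags. All Control libraries shared 1 input of 28.8 M tags and all cKO libraries 1 input of 31.3 M tags, so effects of input and of genotype cannot be told apart. Counted reads were 55.7 to 69.1 M in neuron RNA and 14.9 to 20.1 M in whole CA RNA. Setd1b itself, in CPM (counted reads scaled to the size of the library), stood at 65.3, 50.2 and 48 CPM in neuron Control and at 60.4, 62.5 and 70.3 CPM in neuron cKO (log2 fold change 0.25, SE 0.13, edgeR adjusted p = 0.361). In whole CA RNA it was higher in cKO, by 0.59 (SE 0.11, edgeR adjusted p = 0.00415), so its counts over the whole gene fell in neither material. Counts over the whole gene do not check the loss of single exons, and cKO and Control are used below as the libraries were labelled. Among the H3K27ac libraries, Control library 1 stood apart. Its covered length was at least 2-fold below that of the other Control libraries at 141 members (4.69%), against 0.3% or fewer of the members in each other H3K27ac library. As a description, its mean correlation with the other H3K27ac libraries over the 3004 members was 0.67, against 0.87 to 0.9 for the others, and the number in the name of its deposited file is not the replicate number in its title. Without this library the rule gave 3057 regions, and 2548 of the 3004 members (84.8%) overlapped one of these. Counted over those 2548 members alone, the tests given below came to 70 members longer and 1 shorter in H3K9ac, to 34 lower and 12 higher linked genes in neuron RNA and to 73 and 47 in whole CA RNA.

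The bases of whole members could not be read here, but RefSeq (GRCm38.p6) gives the sequences of listed promoters and miRNAs inside them. Of 31396 promoter windows, each running from 250 bp before to 50 bp after a start site, 137 overlapped a member, and these lay in 115 members (3.83%). The windows that lay fully inside a member belonged to 103 genes, 29 protein-coding and 74 lncRNA genes. They held few CG dinucleotides, with a median of 3 against 7 over the 25748 genes with a window, and 80.6% held 5 or fewer against 43.1%. Their GC content was alike, with a median of 52.0% against 53.0%. The letters CAGATG, an E-box bound by neuronal basic helix-loop-helix factors, occurred on either strand in 29.1% of the windows of the 103 genes and in 17.3% of those of the 25748 genes, with 1 window taken per gene. A MEF2 motif occurred in 6.8% against 3.74%, the AP-1 letters TGANTCA in 8.74% against 7.99%, TATAAA in 14.6% against 14.2%, and the cAMP response element TGACGTCA in none against 1.92%. Each motif was counted on its own, whether or not it overlapped another, and a match is a string of letters, not a bound site. The rule left out regions with an H3K4me3 Control peak, while the 25748 genes were not limited in this way. The part of this in the CG and motif values was not tested.

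Promoters of 2 of these genes are shown because RNA of both genes was lower in the cKO libraries while H3K27ac was shorter in cKO at the member of one and not at that of the other, as given below. The first is a listed start of Mylk3, the gene of cardiac myosin light chain kinase (chr8:85380992-85381291, minus strand), and the other is a listed start of Arpp21, the gene of a cAMP-regulated, RNA-binding phosphoprotein of neurons (chr9:112217212-112217511, minus strand). Both are printed 5′ to 3′ on the gene's strand, and capitals mark the CAGATG match.
Mylk3: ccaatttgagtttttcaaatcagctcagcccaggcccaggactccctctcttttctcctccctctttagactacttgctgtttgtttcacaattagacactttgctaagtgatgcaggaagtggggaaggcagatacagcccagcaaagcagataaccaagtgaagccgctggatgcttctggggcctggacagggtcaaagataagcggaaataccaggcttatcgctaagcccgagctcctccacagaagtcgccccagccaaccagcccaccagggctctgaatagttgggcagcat
Arpp21: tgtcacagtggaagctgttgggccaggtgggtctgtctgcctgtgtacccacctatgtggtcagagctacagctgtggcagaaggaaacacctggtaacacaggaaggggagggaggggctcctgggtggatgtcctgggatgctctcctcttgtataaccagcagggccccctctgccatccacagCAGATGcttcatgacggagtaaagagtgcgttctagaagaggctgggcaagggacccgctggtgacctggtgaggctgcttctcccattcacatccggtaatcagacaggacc
The Mylk3 window had a GC content of 52.0% and 5 CG dinucleotides and none of the 5 motifs searched. The Arpp21 window had 57.7% and 4.

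Of 919 miRNA hairpins in the RefSeq table, 22 (2.39%) lay in a member. Mature miRNAs from 2 such members are shown, with the seed (bases 2 to 8) in capitals.
miR-27b-3p: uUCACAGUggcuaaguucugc
miR-24-3p: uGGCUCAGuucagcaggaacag
miR-338-3p: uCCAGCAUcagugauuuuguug
miR-3065-5p: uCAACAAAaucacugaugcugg
No 2 of these seeds were the same. The first pair lay in the member chr13:63300272-63304671, where H3K27ac covered 4303, 4094 and 3599 bp in Control and 3203, 3945, 3712 and 3606 bp in cKO. The other pair came from opposite strands of the same bases in the member chr11:120007512-120015154, where H3K27ac covered 6887, 4671 and 6126 bp in Control and 5383, 6377, 5145 and 5883 bp in cKO. At both members the cKO libraries overlapped the Control libraries.

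The members were long by construction and varied over a wide range. The mean H3K27ac covered length in Control had a median of 2730 bp (quartiles 2281 and 3525 bp) and reached 21505 bp, and a member held a median of 2.333 separate H3K27ac peaks per Control library. The 35394 regions that met every condition except length had a median of 573.7 bp. Just inside the threshold lay chr2:155662305-155664897 in Trpc4ap (2000 bp) and chr4:131793072-131795248 in Ptpru (2001 bp), and just outside it lay chr16:9707309-9709774 in Grin2a (1999.3 bp) and chr8:127479217-127481569 in Pard3 (1998.7 bp). Members made up 2.58% (chromosome 10) to 5.06% (chromosome 12) of a chromosome's regions with a peak in all 3 Control libraries.

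Members often came in chains. With a gap of at most 10 kb allowed, 1163 members (38.7%) had a neighbour, and 440 chains of at least 2 and 150 of at least 3 members were found. The chain with the most members was 14 in Kalrn, the gene of a guanine nucleotide exchange factor of dendritic spines, at chr16:34115817-34223079, where H3K27ac covered 67.5 kb in the mean Control library within 107 kb. Dlgap1, a scaffold gene of the postsynaptic density, held 11 members within 69.9 kb (chr17:70563671-70633558). Ttc7b, whose product belongs to the complex of a phosphatidylinositol 4-kinase, held 2 chains of 10 (chr12:100296746-100355218 and chr12:100385451-100441310), and Gria1, which encodes an AMPA-type glutamate receptor subunit, held chains of 8 and 6.

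A protein-coding gene span of RefSeq contained the midpoint of 2208 members (73.5%), and each other member was linked to the nearest span, at a median distance of 37.8 kb. The share inside a span was 71.7% for the shorter regions and 69.9% for the 34050 H3K27ac regions with H3K4me3. The annotation used gives gene spans without exons, so exonic and intronic positions were not told apart. The members were linked to 1472 of 19966 genes (7.37%), of which 931 had 1 member, 110 had at least 5 and 30 had at least 10. Linked genes were long, with a median span of 70.7 kb against 18.1 kb over all genes. Celf2, which encodes a regulator of RNA splicing, had the most members (38), followed by Kalrn and Ttc7b (26 each), Gria1, the axon guidance gene Slit3 and the NMDA receptor gene Grin2a (22 each), and the NMDA receptor gene Grin2b and the neuronal transcription factor gene Myt1l (21 each).

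The linked genes were compared with lists of cell type markers, as a check of the label of the nuclei. Of 29 plasticity and synapse genes with a position, 16 (55.2%) had a member, among them Gria1, Grin2a, Grin2b, the synaptotagmin gene Syt1 (10), Shank2 (6), the calcium channel gene Cacna1c (5), Gria2 (4) and Snap25 (4). Of 15 CA pyramidal markers, 7 (46.7%) had one: Camk2a (6), Grik4 (4), Mpped1, Dkk3, Bcl11b and Pou3f1 (3 each) and Wfs1 (1). None of the 6 dentate granule cell, 10 interneuron and 10 microglial markers had a member, and of the glial and vascular genes Mbp had 6 and Slc1a2 and Pdgfrb 1 each. The median span was 96.7 kb in the plasticity list, 22.9 kb in the CA pyramidal list and 8.46 kb in the interneuron list, against 18.1 kb over all genes, and the part of gene length in these shares was not tested.

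At the centres of the members the peaks of 4 marks differed in extent. H3K27ac covered the centre of 90.3% of the members in the mean Control library and of 93.4% in the mean cKO library, and 5 kb before the centre these values were 39.6% and 43.0%. H3K4me1 covered 96.4% and 97.1% of the centres. H3K9ac covered fewer centres, 26.3% in Control (23.8 to 28.3% over libraries) and 35.1% in cKO (31.3 to 37.9%), and at 5 kb before the centre 13.4% and 17.1%. At 2 kb before the centre, H3K27ac covered 46.6% of the members in the mean Control library (44 to 50.3%) and 53.9% in the mean cKO library (50.1 to 58.9%), and H3K4me1 56.8% (54.8 to 59.2%) and 62.7% (57.8 to 66.7%). The libraries of the genotypes overlapped there in both marks, H3K27ac only narrowly. At 2 kb after the centre they did not overlap in H3K27ac, at 43.1 to 47.9% in Control and 48.6 to 57.3% in cKO. In H3K4me1 they overlapped there too, at 54.5 to 57.8% and 55.1 to 64.5%. The members ended where no Control library had an H3K27ac peak, and their median merged width was 3280 bp. Most points 2 kb from a centre thus lay outside the member. Just past its ends H3K27ac is absent in Control by construction, while cKO peaks may reach there. The part of this in the flank values was not tested. H3K4me3, absent by the rule in Control, covered 1.04% of the centres in the mean cKO library.

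**Figure D1:**
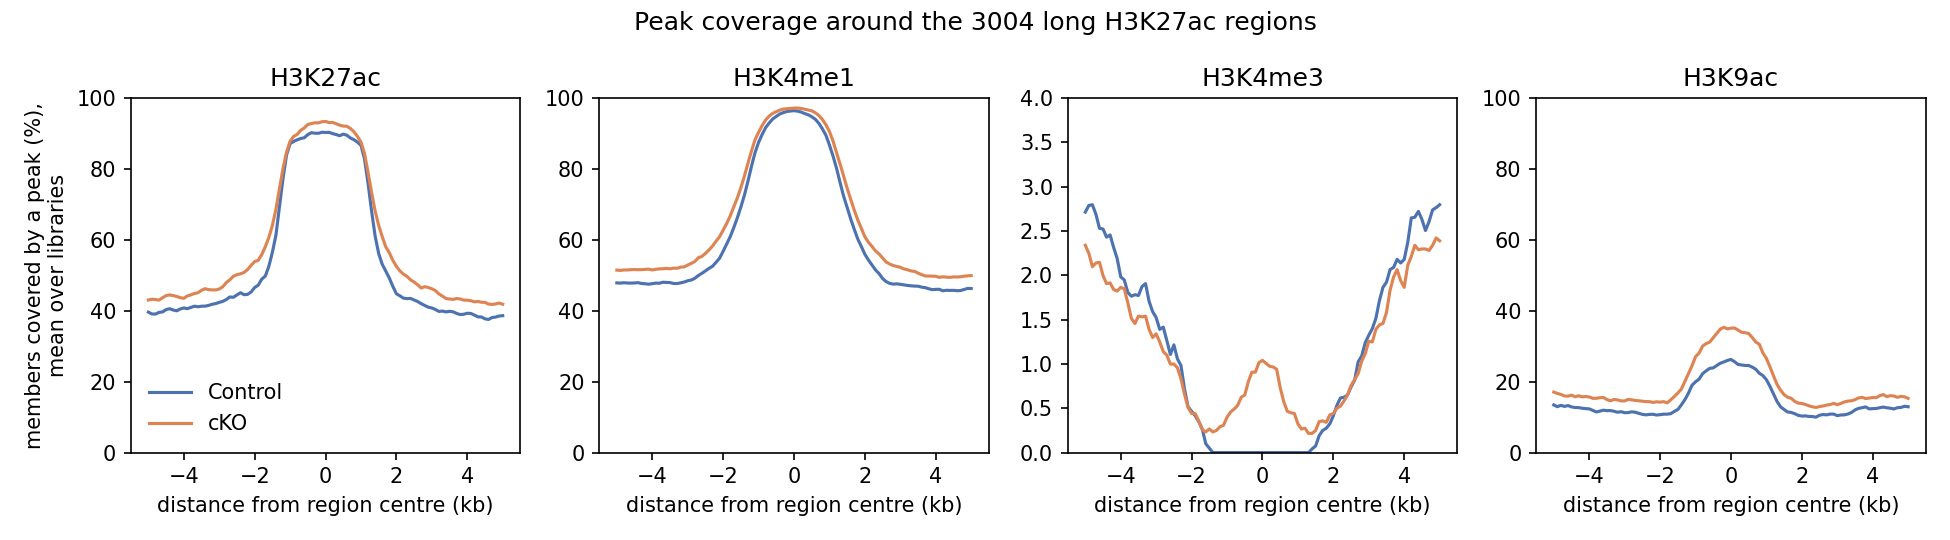
Share of the 3004 members covered by a peak (%, mean over the libraries of a genotype) against the distance from the member's centre (kb), with 1 panel per mark and an enlarged axis for H3K4me3. The H3K9ac curve of cKO lies above that of Control across the window (35.1% against 26.3% at the centre), and the H3K27ac and H3K4me1 curves of cKO lie above those of Control on the flanks (53.9% against 46.6% and 62.7% against 56.8% at 2 kb before it). The members' ends were set by Control H3K27ac peaks, and the part of this in the flank values was not tested.

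H3K27ac itself was present at nearly all members in the cKO libraries. All 4 cKO libraries had a peak at 3000 members (99.9%), and the mean covered length in cKO was at least 2000 bp at 2718 (90.5%). Members summed to 9.09, 9.72 and 10.4 Mb in Control libraries 1, 3 and 4 and to 9.72, 10.4, 9.89 and 10.1 Mb in cKO libraries 1 to 4. The genotypes thus overlapped, with the lowest value in Control library 1. The median log2 difference, cKO minus Control, was 0.05 (log2 of covered bp plus 100) over the members and −0.07 over the shorter regions. Every cKO library lay below every Control library at 134 members (4.46%) and above at 282 (9.39%), against 9.46% and 4.08% of the shorter regions. Among regions with H3K4me3 these shares were 10.7% and 2.77%. By the rule all shorter regions had a peak in every Control library, while 86.8 to 91.7% of them had one in a cKO library. Members were also chosen by their covered length in Control. The part of these choices in the comparison of members with the other regions was not tested. The median fold enrichment of the best peak in a member, the authors' value against the input, was 6.75 to 8.87 in Control and 7.15 to 7.79 in cKO. The same rule applied to the cKO libraries gave 4058 regions, and 60.2% of the members overlapped one of them, while 42.2% of the cKO regions overlapped a member. That rule asked for a peak in all 4 H3K27ac cKO libraries and for no H3K4me3 cKO peak. An H3K4me3 peak of at least 1 cKO library overlapped 20.9% of the members, so the 60.2% does not describe H3K27ac alone.

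At 4 members a cKO library had no H3K27ac peak. These were picked after their values were seen and are a description. In the member of Mylk3 (chr8:85379995-85382934) H3K27ac covered 2140, 1689 and 2713 bp in Control and 196, 1133, 0 and 456 bp in cKO, with every cKO library below every Control library. H3K4me1 there covered 2494 to 2940 bp in Control and 2533 to 2561 bp in cKO, and no library had an H3K4me3 or H3K9ac peak. This member therefore kept its H3K4me1 peak in all cKO libraries. In the member of Brd9, which encodes a bromodomain protein of BAF complexes (chr13:73942417-73945112), H3K27ac covered 2255, 1755 and 2444 bp in Control and 304, 305, 0 and 445 bp in cKO. H3K4me1 was also shorter there, at 2696, 1851, 2696 and 1558 bp in Control and 0, 381, 0 and 0 bp in cKO. H3K9ac at the same member covered 1388 to 1886 bp in Control and 668 to 1473 bp in cKO. The member of Ptpa, the gene of a phosphatase 2A activator (chr2:30444907-30447989), had the same form, with H3K27ac at 2755, 1436 and 2527 bp in Control and 0, 939, 278 and 384 bp in cKO. H3K4me1 there covered 2461 to 2716 bp in Control and 343, 0, 1333 and 637 bp in cKO. The fourth was chr16:4831789-4836003 in 4930562C15Rik, where H3K27ac covered 2566 to 3854 bp in Control and 0 to 616 bp in cKO and no library had an H3K9ac peak. At these 4 members the cKO libraries did not overlap the Control libraries in H3K27ac.

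The member that holds the Arpp21 start (chr9:112215996-112218801) had no such loss. H3K27ac covered 1711, 2806 and 1985 bp in Control and 2729, 2806, 2806 and 2806 bp in cKO. Its H3K4me1 covered 2806 bp in every library except cKO library 3 (1886 bp), and its H3K9ac covered 623, 658, 587 and 813 bp in Control and 1477, 1275 and 529 bp in cKO. The H3K27ac and H3K9ac ranges of the genotypes overlapped.

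**Figure D2:**
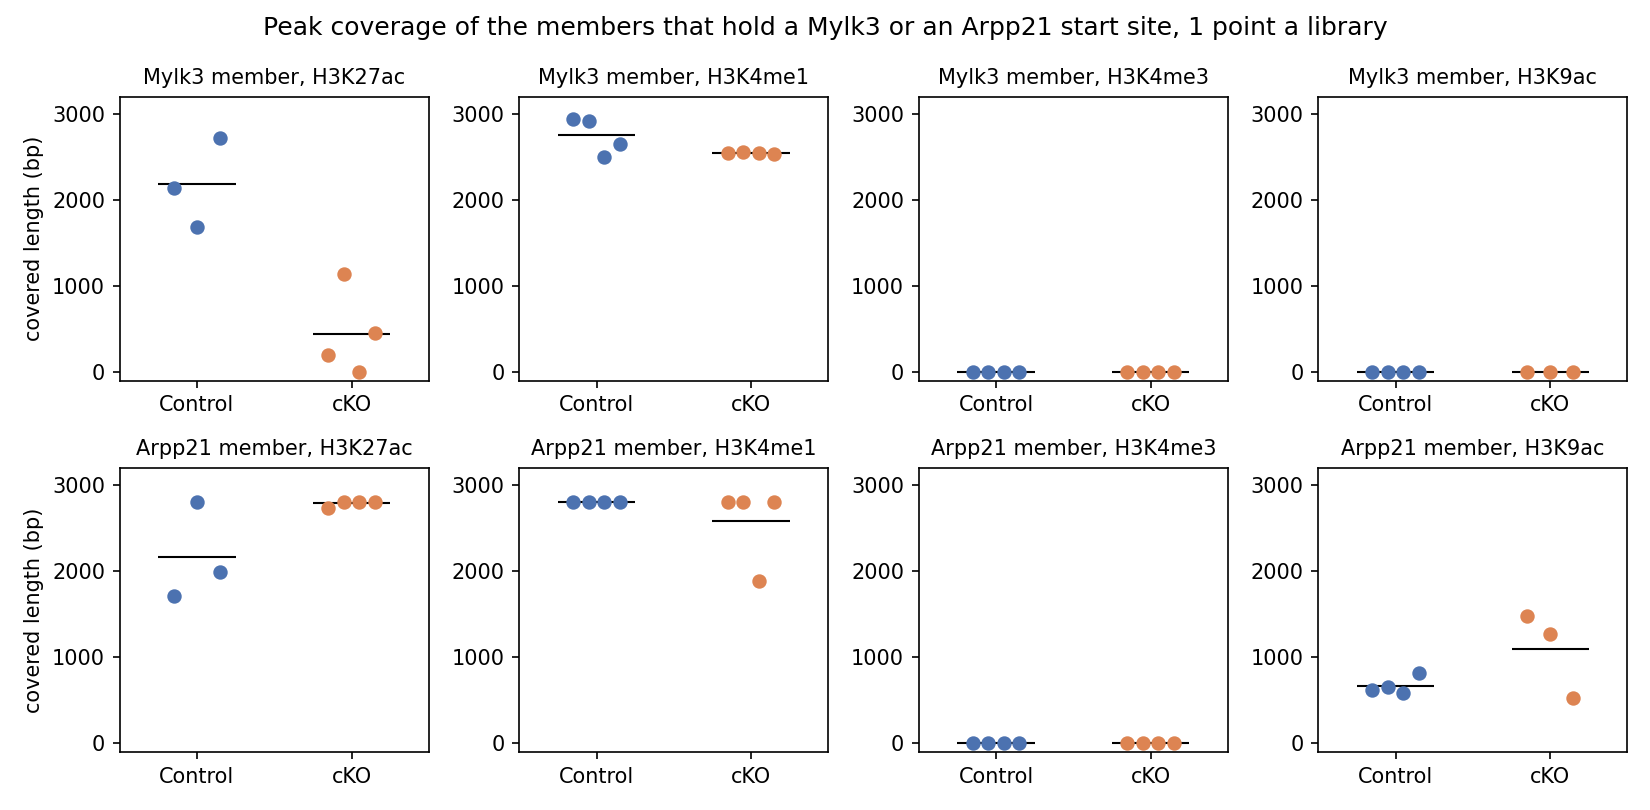
Covered length (bp) of 4 marks in each library at the members that hold a Mylk3 start (top) and an Arpp21 start (bottom), with Control in blue, cKO in orange, 1 point per library and a line at the mean. At Mylk3 the cKO libraries sit at 0 to 1133 bp of H3K27ac, all below the Control libraries at 1689 to 2713 bp, while H3K4me1 stays above 2400 bp in every library.

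H3K4me1 covered 86.0 to 88.3% of the members' bases in the Control libraries and 87.3 to 91.9% in the cKO libraries, and all 4 cKO libraries had an H3K4me1 peak at 2995 members (99.7%). The median log2 difference was 0.02. H3K4me3, which the rule excluded in Control, appeared at 134, 366, 161 and 248 members in cKO libraries 1 to 4 (4.46, 12.2, 5.36 and 8.26%). At least 1 cKO library had such a peak at 627 members (20.9%), exactly 1 library at 424 (14.1%), and all 4 at 14. A gain is the only direction the rule allows. Under the mirrored rule, 665 of the 4058 regions chosen without H3K4me3 in cKO (16.4%) had an H3K4me3 peak in at least 1 Control library. A peak in all 4 Control libraries was found at 65 of these 4058 regions, a larger share than the 14 of 3004 members. Among the 14 were members of Cacna1a, a presynaptic calcium channel gene (chr8:84518434-84522053), with 560, 892, 499 and 310 bp of H3K4me3 in cKO, and of Nrp2, a semaphorin co-receptor gene (chr1:62782560-62785513), with 146, 813, 190 and 163 bp. These peaks were short beside the H3K27ac of the same members, which covered 2894 bp or more of the Cacna1a member and 2150 bp or more of the Nrp2 member in every library.

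H3K9ac, which took no part in choosing the members, was more extensive in the cKO libraries. It is an acetylation of active promoters and enhancers laid down mainly by GCN5 and PCAF. Peaks of H3K9ac covered 2.16, 2.61, 2.46 and 2.64 Mb of the members in Control libraries 1 to 4 and 3.48, 3.63 and 2.84 Mb in cKO libraries 1, 2 and 4. Each cKO library lay above every Control library. The Control mean was 2.47 ± 0.219 Mb (SD, n = 4), and the cKO mean of 3.32 ± 0.422 Mb (SD, n = 3) lay above it by a difference of 0.42 on the log2 scale or 1.34-fold (two-sided exact permutation test over libraries, p = 0.0571, adjusted p = 0.0999 over 7 tests). With 3 libraries against 4, 0.0571 is the smallest p this test can give, so no such comparison could pass 0.05. The share of members with an H3K9ac peak was 73.5, 76.1, 75.6 and 77.4% in Control and 87.2, 87.0 and 81.8% in cKO. The mean number with a peak was higher by 292.25 members in cKO (exact permutation p = 0.0571, adjusted p = 0.0999), again with no overlap. The median fold enrichment of the best H3K9ac peak in a member was 4.13 to 4.38 in Control and 4.43 to 4.63 in cKO.

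The H3K9ac difference was small at H3K27ac regions with H3K4me3, where the libraries covered 36.2 to 39.0 Mb in Control and 37.0 to 40.3 Mb in cKO (1.03-fold, exact permutation p = 0.4). The ratio of members to these regions was higher in every cKO library, by 0.38 on the log2 scale (1.3-fold, exact permutation p = 0.0571, adjusted p = 0.0999). The shorter regions without H3K4me3 showed about the same fold as the members, 3.82 to 4.88 Mb in Control against 4.8 to 6.65 Mb in cKO (1.32-fold, exact permutation p = 0.171), and the ratio of members to shorter regions differed by 0.02 (exact permutation p = 0.686). With peaks of a −log10 q of at least 5 only, the members held 0.956 to 0.989 Mb in Control and 1.68 to 1.91 Mb in cKO (1.85-fold). The shorter regions again showed about the same fold, with 1.07 to 1.19 Mb in Control and 2.01 to 2.18 Mb in cKO (1.89-fold). Regions with H3K4me3 differed 1.04-fold.

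**Figure D3:**
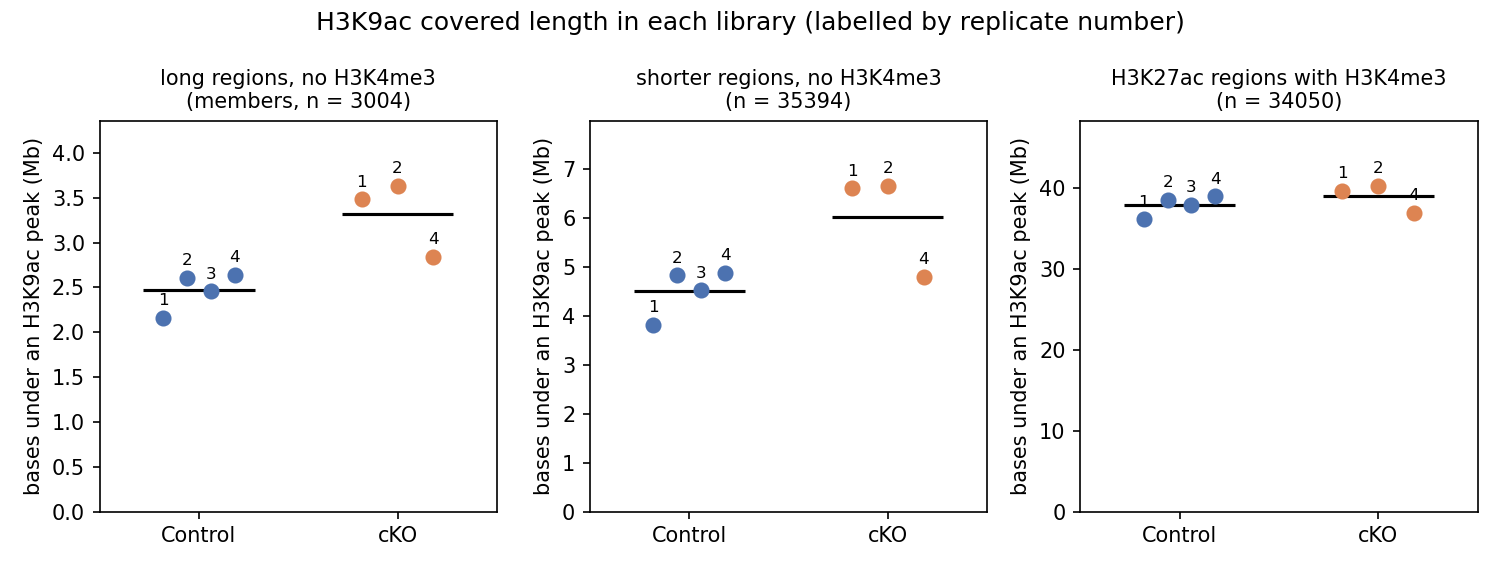
Bases under an H3K9ac peak (Mb) in each library, numbered by replicate, at the members, at shorter regions without H3K4me3 and at H3K27ac regions with H3K4me3, with a line at the mean and a separate axis from 0 in each panel. At the members the 3 cKO libraries sit at 2.84 to 3.63 Mb, above the Control libraries at 2.16 to 2.64 Mb, and at regions with H3K4me3 the genotypes overlap.

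Several measures moved with this result, and their part in it was not tested. After scaling to the input, 28.8 M tags were usable in each H3K9ac Control library and 31.3 M in each cKO library. The libraries came from 2 sequencing lanes, and the log2 difference was 0.69 in lane 5 (1 library against 1) and 0.32 in lane 6 (2 cKO against 3 Control). With the same number of peaks taken from every library the difference was 1.29-fold. H3K9ac over the gene spans of 6 dentate granule cell markers covered 12.8 to 15.4 kb in Control and 9.39 to 10.5 kb in cKO, and over 10 interneuron markers 14 to 15 kb and 9.9 to 13.5 kb, while over 15 CA pyramidal markers it covered 203 to 224 kb and 194 to 235 kb. The 9 oligodendrocyte lineage genes stood at 19.5 to 24.2 kb and 22.1 to 32.6 kb, the 10 astrocyte genes at 15.7 to 17.6 kb and 14.3 to 19.2 kb, and the 10 microglial genes at 1.53 to 3.51 kb and 2.71 to 6.53 kb, overlapping in each case.

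H3K9ac rose with the length of the member in both genotypes. In the 1138 members of 2000 bp to under 2500 bp, H3K9ac covered 17.6% of the bases in the mean Control library (15.3 to 19%) and 23.8% in the mean cKO library (20.2 to 26%). In the 522 members of 4000 bp or more it covered 27.2% (24.1 to 28.8%) and 36.1% (31.4 to 39.4%). In each of the 4 length classes the cKO libraries lay above the Control libraries. All Control libraries had an H3K9ac peak at 1818 members (60.5%), and all cKO libraries at 2276 (75.8%), while 150 members (4.99%) had none in any library. A peak in all cKO libraries and in no Control library was found at 38 members, and the reverse at 1.

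Region by region, 2597 members had an H3K9ac peak in at least 3 of the 7 libraries and were tested by limma on log2 of covered bp plus 100, together with all 50484 such regions. At an adjusted p under 0.05 (Benjamini-Hochberg over all regions), 76 members (2.93%) were longer in cKO, against 1.41% of all regions tested, and 1 (0.0385%) was shorter, against 0.753%. The median log2 difference was 0.48 over the members and 0.05 over all regions tested. Among the shorter regions without H3K4me3 the share called longer was 2.64%, and among regions with H3K4me3 it was 0.671%. Every cKO library lay above every Control library at 595 of the members tested (22.9%, against 9.72% of all regions tested) and below at 21 (0.809%, against 5.97%). The 595 include 38 members with a peak in all cKO libraries and no Control library, which entered the test through the cKO libraries alone. The calls leaned on all 3 cKO libraries: without cKO library 1, 2 or 4 the members called longer numbered 4, 3 and 7, while without any one Control library they numbered 70 to 88. Of the members called longer, 36 had no peak in any Control library and so entered the test only through the cKO libraries, where they were high, and 35 had a peak in all 4. With a peak required in every library, 25 of 1758 members were called longer and 0 shorter, against 102 and 211 of all 32320 regions, and the limma median was 0.35 against 0.02 (at an unadjusted p under 0.05, 448 members were longer and 24 shorter).

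The 4 members called longer with the smallest adjusted p had no Control peak. They passed the filter only through the cKO libraries, and identical zeros in Control have no spread, so their values are given as a description without a p. In the Celf2 member chr2:6923245-6932402 no Control library had an H3K9ac peak, and the cKO libraries covered 558, 628 and 559 bp. H3K27ac at this member covered 5054, 8808 and 8673 bp in Control, lowest in library 1, and 8653 to 8985 bp in cKO. The others were chr11:117763952-117767065, 0.477 kb from Tmc6 (172, 191 and 168 bp in cKO), chr15:36415834-36420253, 59.6 kb from Ankrd46 (791, 925 and 640 bp), and chr15:95067531-95071065 in Tmem117 (380, 524 and 519 bp). In all 3 the Control libraries were listed at 0, so no fold is given. The member called shorter lay in Prkag2, the gene of a regulatory subunit of AMP-activated kinase (chr5:25034206-25037065). H3K9ac there covered 162, 453, 218 and 198 bp in Control and had no peak in the cKO libraries, so it too is a description, while H3K27ac covered 2666 to 2860 bp in cKO.

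Of the 6 longest members, H3K9ac passed the test at those of Msra and Chn1. Msra encodes a methionine sulfoxide reductase that repairs oxidised proteins, and its member chr14:64330153-64353610 was the longest, with 18482, 23059 and 22975 bp of H3K27ac in Control and 23253 to 23380 bp in cKO. H3K9ac covered 5566, 6395, 6209 and 5546 bp of it in Control and 9081, 9615 and 8439 bp in cKO (log2 difference 0.60, SE 0.08, limma adjusted p = 0.0252). The member 1.22 kb from Chn1, which encodes the Rac-inactivating protein chimaerin (chr2:73601424-73617451), had 4919 to 5618 bp of H3K9ac in Control and 7055 to 8328 bp in cKO (0.55, SE 0.08, limma adjusted p = 0.0329). The members of Kalrn (chr16:34160506-34182846), Gria1 (chr11:57315167-57332533), Eipr1 (chr12:28859131-28877465, 0.804 kb away) and the guanine nucleotide exchange factor gene Trio (chr15:27795725-27811903) had log2 differences of 0.54, 0.92, 0.54 and 0.37 with limma adjusted p of 0.338, 0.129, 0.129 and 0.141. At each of the 6 the cKO libraries lay above the Control libraries, and no library had an H3K4me3 peak.

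Summed over all members of a gene, which was not tested, H3K9ac lay higher in every cKO library at the 8 genes with the most members and at Msra. At Celf2 it covered 12.8, 16.4, 17.6 and 18.4 kb in Control and 33.8, 34.7 and 27.3 kb in cKO. At Gria1 it covered 19.6, 24.9, 27 and 28.6 kb in Control and 40.3, 40.9 and 34.1 kb in cKO. At Grin2a the gap was narrow, with 7.67 to 12 kb in Control and 12.2 to 18.1 kb in cKO. Camk2a and Bdnf did not share this order. The 6 members of Camk2a, the alpha subunit of calcium/calmodulin kinase II, held 12.3, 13.5, 11.5 and 15.4 kb in Control and 13.5, 12.5 and 10.9 kb in cKO, which overlap. The member of Bdnf, the gene of a neurotrophin, had no H3K9ac peak in any library, while H3K27ac covered 0.73, 2.54 and 3.17 kb of it in Control, lowest in library 1, and 2.79 to 2.99 kb in cKO.

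**Figure D4:**
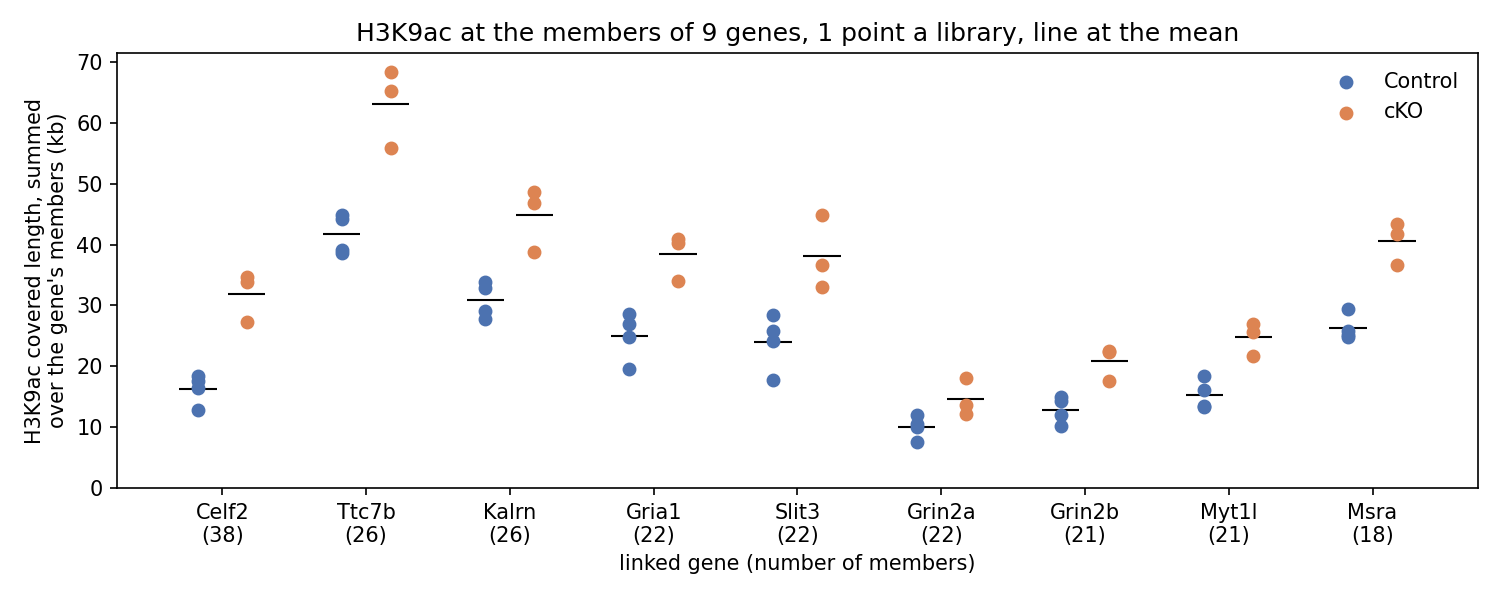
H3K9ac covered length summed over a gene's members (kb) in each library for the 8 genes with the most members and Msra, with Control in blue, cKO in orange, the number of members in brackets and a line at the mean. At each gene the cKO points lie above the Control points, for example 27.3 to 34.7 kb against 12.8 to 18.4 kb at Celf2.

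RNA of the linked genes was compared between the genotypes to see which genes near the members differed in expression. In neuron RNA 1408 linked genes were tested with edgeR's quasi-likelihood test over all 19622 genes. At an adjusted p under 0.05, 39 (2.77%) were lower in cKO against 2% of all genes tested, and 15 (1.07%) were higher against 0.744%. Their median log2 fold change was −0.04, against 0.02 over all genes tested. Only protein-coding genes could be linked. Over the 14348 of these tested in neuron RNA, 2.24% were lower and 0.551% higher, with a median of −0.01. In whole CA RNA 79 of 1369 linked genes (5.77%) were lower against 2.79% of all 15362 genes, and 55 (4.02%) were higher against 1.38%, with a median log2 fold change of 0.01. Over the 13333 protein-coding genes tested there that could be linked, 2.73% were lower and 1.41% higher. Linked genes were also abundant, with a median log2 CPM of 6.18 in whole CA RNA against 4.3 over all genes tested, and abundant genes are called more easily; the part of abundance in these shares was not tested. The whole CA calls came from 2 sequencing lanes, and the lanes alone gave 33 and 43 lower and 17 and 10 higher genes. In neuron RNA the higher genes numbered 3 to 14 when each library was left out in turn, with 3 without cKO library 1 or Control library 3, 4 without Control library 2 and 7 without cKO library 2. Of the 54 genes called in neuron RNA and the 134 called in whole CA RNA, 36 were called in both (66.7% and 26.9%), each in the same direction, 29 of them lower. In bulk samples, fewer cells of a type and less RNA per cell cannot be told apart.

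Sstr4 and Thbd are neighbours on chromosome 2, and both fell in both materials. Sstr4, a somatostatin receptor gene (chr2:148395377-148396764), had 5 members and stood at 76.4, 62.9 and 51.7 CPM in neuron Control and 15.9, 15.2 and 17.5 CPM in cKO (log2 fold change −1.97, SE 0.14, edgeR adjusted p = 0.000129), and it fell by 1.57 in whole CA RNA (SE 0.10, edgeR adjusted p = 4.61e-09). The neuron libraries of the genotypes did not overlap. None of its members lay inside the gene. H3K27ac of these members covered 7.84, 15.6 and 15.1 kb in Control, lowest in library 1, and 15.7 to 16.3 kb in cKO. H3K9ac covered 0 to 0.276 kb in Control and 0.93 to 1.72 kb in cKO. Both acetylations thus lay above every Control library in cKO, H3K27ac by a narrow margin, while the Sstr4 RNA was lower. Its neighbour Thbd, the gene of thrombomodulin (chr2:148404471-148408188), stood at 37.8, 35.8 and 32.4 CPM in neuron Control and 9.93, 8.64 and 10.1 CPM in cKO (−1.88, SE 0.11, edgeR adjusted p = 4.44e-05). In the member of Thbd both acetylations overlapped between the genotypes. H3K27ac covered 3.03 to 3.8 kb of it in Control and 3.73 to 3.89 kb in cKO, and H3K9ac 0.838 to 1.24 kb and 0.472 to 1.09 kb. Thbd fell less in whole CA RNA (−0.73, SE 0.11, edgeR adjusted p = 0.000254), and the difference between both effects was −1.14 (edgeR interaction, adjusted p = 0.000724). The melanocortin receptor gene Mc4r fell by 1.75 in neuron RNA (SE 0.12, edgeR adjusted p = 7.26e-05) and by 1.36 in whole CA RNA (SE 0.21, edgeR adjusted p = 0.000412).

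Zbtb20, which encodes a transcription factor of CA pyramidal identity, had 5 members and stood at 561, 541 and 609 CPM in neuron Control and 280, 251 and 295 CPM in cKO (−1.04, SE 0.10, edgeR adjusted p = 0.00074), and it fell by 1.07 in whole CA RNA (SE 0.10, edgeR adjusted p = 8.45e-07). Its members held 18.1, 25 and 25.4 kb of H3K27ac in Control and 26.2 to 26.7 kb in cKO, and 3.63, 5.05, 6.82 and 6.87 kb of H3K9ac in Control and 9.54, 8.28 and 9.28 kb in cKO. As at Sstr4, the RNA was lower and the acetylated length was not. At both genes 1 Control library lay well below the other Control libraries in H3K27ac, and Control H3K27ac took part in choosing the members. Zmynd8, the gene of a chromatin reader, had 3 members and stood at 336, 277 and 284 CPM in neuron Control and 135, 127 and 135 CPM in cKO (−1.18, SE 0.10, edgeR adjusted p = 0.000367). Wfs1, the CA1 marker that encodes wolframin, stood at 150, 142 and 130 CPM and 65.5, 63.2 and 66.3 CPM in the same order (−1.11, SE 0.09, edgeR adjusted p = 0.000219), and its member held 2.55, 2.18 and 1.28 kb of H3K27ac in Control and 1.05 to 1.76 kb in cKO. Thsd4, an extracellular matrix gene, Slc9a4, a sodium/proton exchanger gene, Il16, a cytokine gene, and Glt8d2, a glycosyltransferase gene, fell by 1.66, 1.25, 1.19 and 1.13 in neuron RNA and by 1.42, 1.62, 1.37 and 1.15 in whole CA RNA.

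Mylk3 fell by more on the log2 scale than any other linked gene called in neuron RNA, at low levels throughout. It stood at 1.24, 1.48 and 1.18 CPM in neuron Control and 0.286, 0.283 and 0.28 CPM in cKO (−2.19, SE 0.22, edgeR adjusted p = 0.000838), and fell by 2.41 in whole CA RNA (SE 0.29, edgeR adjusted p = 3.8e-05). Arpp21, named for its promoter after its values were seen, stood at 338, 327 and 334 CPM and 235, 219 and 218 CPM (−0.57, SE 0.08, edgeR adjusted p = 0.00626). RNA of both genes fell, while H3K27ac at the start-bearing member lay below every Control library in cKO at Mylk3 and overlapped the Control libraries at Arpp21.

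Msra, with the longest member, stood at 49.9, 45.8 and 49.0 CPM in neuron Control and 31.3, 25.5 and 30.3 CPM in cKO (−0.73, SE 0.10, edgeR adjusted p = 0.00481), and its 18 members held 89.3, 110 and 112 kb of H3K27ac in Control and 113 to 115 kb in cKO. Among the 107 linked genes of at least 5 members tested in whole CA RNA, 13 (12.1%, against 2.79% of all genes) were lower and 5 (4.67%, against 1.38%) higher, and in neuron RNA 5 (4.67%, against 2%) were lower and 1 (0.935%, against 0.744%) higher. These genes were abundant, with a median log2 CPM of 7.63 in whole CA RNA against 4.3 over all genes, and the part of abundance was not tested. Kalrn fell by 0.29 in whole CA RNA (SE 0.06, edgeR adjusted p = 0.00649), with −0.42 in neuron RNA (edgeR adjusted p = 0.0956). Celf2 rose by 0.27 in whole CA RNA (SE 0.07, edgeR adjusted p = 0.0324), with 0.33 in neuron RNA (edgeR adjusted p = 0.168). In the synapse list 16 linked genes were tested. None passed the test in neuron RNA, where the median was −0.10, and 3 were lower in whole CA RNA, among them Gria2 and Grin2a, by 0.38 and 0.25 (edgeR adjusted p = 0.00272 and 0.0324). Gria1 did not pass (−0.14, edgeR adjusted p = 0.174), nor did Grin2b (−0.25, edgeR adjusted p = 0.0754). Of the 7 linked CA pyramidal markers, Wfs1 was lower in both materials and Grik4 in whole CA RNA.

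In whole CA RNA further lower genes were Gpm6a, a neuronal membrane glycoprotein gene, at 1480 to 1790 CPM in Control and 653 to 908 CPM in cKO (−1.09, SE 0.07, edgeR adjusted p = 2.14e-08), Oxr1, an oxidation resistance gene (−0.89, SE 0.08, edgeR adjusted p = 3.95e-07), and Avpr1b, the vasopressin receptor gene of CA2 (−2, SE 0.30, edgeR adjusted p = 0.000412). In neuron RNA Gpm6a had a log2 fold change of −0.75 (edgeR adjusted p = 0.0872) and Avpr1b of −1.28 (edgeR adjusted p = 0.141). The member of Gpm6a was one of those in which Control library 1 stood apart, with 0.556 kb of H3K27ac against 3.11 and 3.52 kb in the other Control libraries and 3.51 to 3.52 kb in cKO.

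The higher genes were of mixed kinds. Sult5a1, a sulfotransferase gene with 2 members, stood at 2.57, 1.74 and 2.23 CPM in neuron Control and 4.75, 3.59 and 4.59 CPM in cKO (0.98, SE 0.18, edgeR adjusted p = 0.0182), and it rose by 1.22 in whole CA RNA (SE 0.14, edgeR adjusted p = 1.67e-05). Fbln2, an extracellular matrix gene, Il17ra, a cytokine receptor gene, and Gpr55, a lipid receptor gene, rose by 0.56, 0.86 and 1.01 in neuron RNA and by 0.71, 0.70 and 0.82 in whole CA RNA. Chrna1, Tox3, Cacna2d4, Spats1 and Inca1 rose by 0.53 to 1.05 in neuron RNA and did not pass the test in whole CA RNA, and Zp2 (0.87) and Chit1 (1.52) were too low there to be tested.

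**Figure D5:**
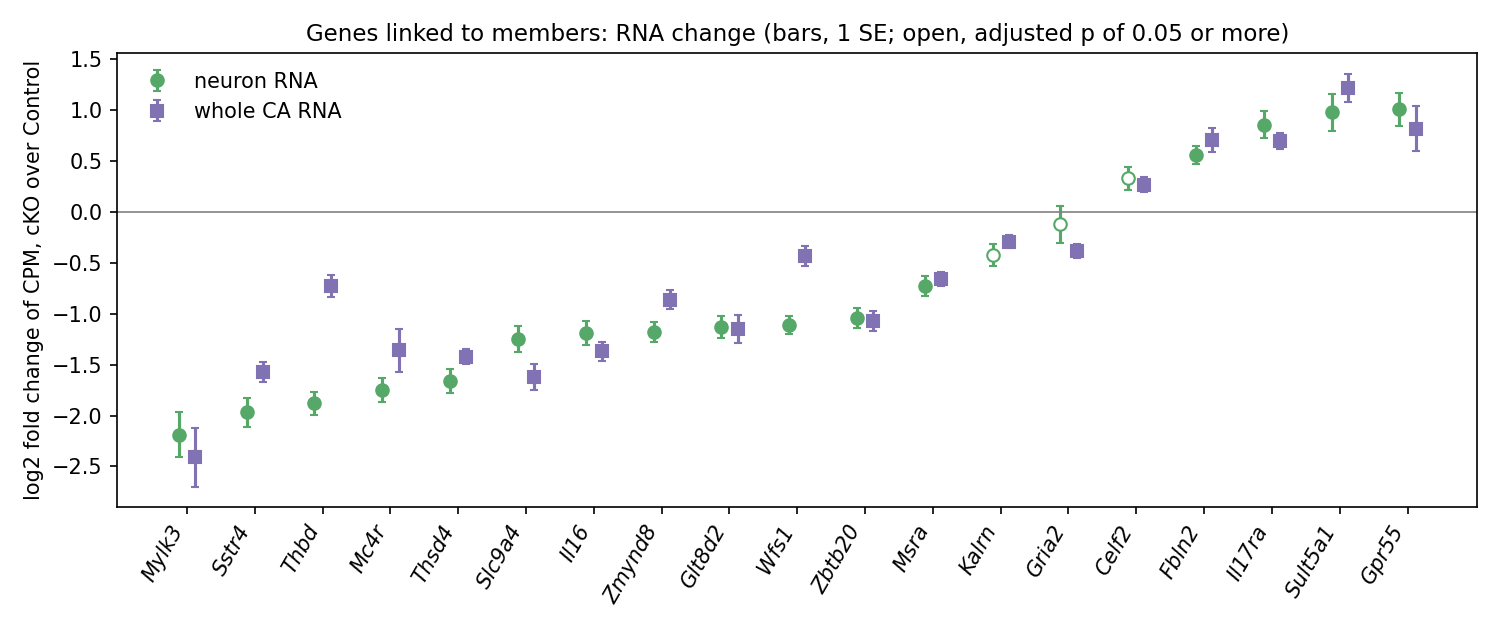
Log2 fold change of CPM, cKO over Control, of 19 linked genes in neuron RNA (green circles) and whole CA RNA (purple squares), with bars of 1 SE and open symbols where the edgeR adjusted p was 0.05 or more. Mylk3 and Sstr4 lie lowest in neuron RNA (−2.19 and −1.97), and Sult5a1 lies highest in whole CA RNA (1.22).

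H3K9ac medians lay above 0 at the members of lower and of higher genes alike. The median H3K9ac log2 difference was 0.54 over the 100 members of genes lower in neuron RNA, 0.75 over the 31 members of genes that were higher, and 0.44 over the 2783 members of genes without a call. The median H3K27ac difference was 0.13, 0.13 and 0.05 in the same order. In whole CA RNA the H3K9ac medians were 0.52 over 258, 0.66 over 146 and 0.42 over 2460 members. These differences between classes of genes were not tested.

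Levels of marker genes also moved in these RNA libraries. The summed level of 6 dentate granule cell markers was 302 to 320 CPM in neuron Control and 227 to 267 CPM in cKO, with Dsp and C1ql2 lower. The 15 CA pyramidal markers summed to 4120 to 4750 CPM and 3620 to 4000 CPM, with Wfs1, Spink8, Neurod6 and Amigo2 lower, while the microglial (29.1 to 31 and 27.3 to 31.3 CPM) and oligodendrocyte lists (128 to 148 and 143 to 147 CPM) overlapped. The astrocyte list stood at 360 to 424 CPM in Control and 441 to 457 CPM in cKO with no gene called. The interneuron list stood at 729 to 822 and 674 to 847 CPM with Cck lower. The endothelial and mural list stood at 18.1 to 20.7 and 19.2 to 20.6 CPM with Kdr lower. In whole CA RNA the microglial list stood at 414 to 493 CPM in Control and 359 to 425 CPM in cKO with Cx3cr1 lower, and the endothelial and mural list at 456 to 508 and 427 to 456 CPM with Kdr lower. The dentate list stood there at 206 to 256 and 152 to 221 CPM with Dsp, Calb1 and Stxbp6 lower, the CA pyramidal list at 8230 to 9070 and 7680 to 8580 CPM with 5 genes lower, and the astrocyte list at 5890 to 6680 and 5760 to 6360 CPM with Aqp4 lower. The oligodendrocyte and interneuron lists had no call in whole CA RNA. The part of these markers in the calls above was not tested.

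Control libraries of neuron RNA and whole CA RNA were compared to see whether linked genes were more abundant in neurons. Of 1387 linked genes, 199 (14.3%) were at least 2-fold higher in neuron RNA at an edgeR adjusted p under 0.05, against 19% of the 13817 protein-coding genes that could be linked and 25.3% of all 16859 genes tested. At least 2-fold lower were 237 (17.1%), against 22.6% and 21%. The share of linked genes was below that of both backgrounds in both directions. The isolation of the RNA and the sequencing run differ with the material and cannot be told apart from it.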

How the data were processed

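Peak lists of 30 ChIP-seq libraries and count tables of 18 RNA-seq libraries were used. Per the file headers, the authors called peaks in each library against 1 input per genotype with MACS 2.1.0.20140616 (2.1.1.20160309 for H3K4me3) at a q-value cutoff of 0.1, with broad peaks for H3K4me1 alone, duplicates removed and the larger library scaled to the smaller. For each peak the deposited lists give its length, its coverage (pileup signal), its fold enrichment over the local input and −log10 p and q values. The deposited RNA tables hold raw read counts per Ensembl gene. The submitters' processing notes name SAMtools, MACS2 and the build mm10 (GRCm38). The aligner, the read counter, the annotation and the use of strand are not given in the sources used here, so antisense and overlapping genes cannot be separated. Symbols were found for 99.3% of the neuron RNA IDs and 98.9% of the whole CA RNA IDs, and summary lines of the whole CA tables, all at 0, were left out.

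Covered length is the number of bases of a region under a peak of a library, so it depends on whether a peak passed the cutoff. Members and gene lists were chosen with earlier results of these data known. Members were linked to the RefSeq protein-coding span around their midpoint, or else to the nearest span. The design had planned the nearest start site, which became an alternative chosen after seeing the data because the table of starts is incomplete. H3K9ac was tested with exact permutation over libraries and, per region, with limma 3.58.1 on log2(covered bp + 100) where at least 3 of 7 libraries had a peak. RNA was tested with edgeR 4.0.16 (quasi-likelihood, TMM factors, filterByExpr), Benjamini-Hochberg adjusted over all genes, in R 4.3.3, and with DESeq2 1.42.0 as an alternative. The same-numbered libraries were not treated as pairs. The tests were checked on simulated data. Other alternatives were peak strength, length, offset, filter, threshold, lane, gene window and leaving out each library.

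Regions named are the 6 longest members, those beside the length threshold and the H3K9ac calls with the smallest adjusted p (up to 4 longer and 4 shorter). Genes named are up to 12 lower and 12 higher calls per RNA comparison, genes of the named regions, the 8 genes with the most members, called list genes and Setd1b. Arpp21, the members without an H3K27ac peak in a cKO library, those with H3K4me3 and the miRNAs were chosen after their values were seen. Some genes that this rule names are not reported here.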

Additional observations from a re-analysis of the deposited data

Results flagged for a closer look

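Single libraries that stood apart from the rest of their group were looked for in 258 groups of values of the named genes and regions, and 12 were found. Chance gives about 1 in 20 groups.

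In whole CA RNA, Bdnf stood at 38.8 CPM in cKO library 4, with the next library at 51.8 CPM, and Kash5 stood at 4.44 CPM in cKO library 6, with the next at 3.9 CPM. Among the Control libraries, Mpped1 stood at 369 CPM in library 5 (next 347 CPM), Npas2 at 29.1 CPM in library 6 (next 25.9 CPM) and Sstr4 at 21.1 CPM in library 4 (next 24.7 CPM). The lowest Sstr4 Control value still lay above all cKO libraries, which reached 10 CPM.

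H3K4me1 stood apart at 6 named regions. In cKO library 3 it covered 21477 bp of the Kalrn region starting at chr16:34160506 (next 22341 bp) and 1253 bp of the Ptpru region starting at chr4:131793072 (next 2177 bp). In cKO library 4 it covered 6442 bp of the Celf2 region starting at chr2:6923245 (next 5924 bp). Among the Control libraries it covered 17345 bp of the region near Eipr1 starting at chr12:28859131 in library 4 (next 16925 bp), 14357 bp of the Trio region starting at chr15:27795725 in library 3 (next 15670 bp), and 1426 bp of the Grin2a region starting at chr16:9707309, just outside the length threshold, in library 2 (next 2466 bp). At that last region Control library 1 also had 163 bp of H3K9ac, while the other Control libraries had none.

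The effect of genotype on Thbd differed between the materials: the log2 fold change in neuron RNA minus that in whole CA RNA was −1.14 (edgeR interaction over 18 libraries, adjusted p = 0.000724).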

How the results depend on the processing

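No difference with a sign reversed its direction under the alternatives run. Counts of members, regions or genes have no direction to reverse, and many of them changed in size. The number of members followed the thresholds: 88 with peaks of a −log10 q of at least 5, 5241 at 1500 bp, 1177 at 3000 bp, and 4593 where an H3K4me1 or H3K4me3 peak had to cover 10% of the region. The H3K9ac difference over all members (0.42) ran from 0.32 in lane 6 to 0.89 with strong peaks, and leaving out each library gave 0.35 to 0.53. Members called longer in H3K9ac numbered 50 without the filter, 25 with a peak required in every library, 119 at an adjusted p under 0.1, and 3 to 88 with each library left out. Members called shorter numbered 0 with an offset of 1000 bp, 0 without the filter, 0 with a peak in every library, 2 with strong peaks, 3 with equal peak numbers and 0 to 3 with each library left out, all by limma, against 26 at an unadjusted p under 0.05 without these changes. Neuron RNA gave 79 lower genes with DESeq2, 68 at an adjusted p under 0.1 and 90 within 100 kb of a member. Higher genes there numbered 24 at 0.1, 29 within 100 kb, 8 by the nearest listed start and 3 to 14 with each library left out. Whole CA RNA gave 33 and 43 lower and 17 and 10 higher genes in the lanes alone, 126 lower and 93 higher within 100 kb, 83 higher with DESeq2 and 85 higher at 0.1. Control neuron against whole CA RNA gave 722 lower and 691 higher genes within 100 kb. Looser thresholds and wider windows test more by construction, and the cause of the other shifts was not tested. For single genes and regions, 1170 values kept their direction and side of the threshold, 95 lost the call and 17 gained it.

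Same-numbered libraries share a number and, for H3K9ac and whole CA RNA, a sequencing lane, but nothing in the labels pairs them: their deviations correlated by −0.014 to 0.008 for H3K9ac, −0.298 to 0.414 for neuron RNA and −0.072 to 0.223 for whole CA RNA. The cKO library correlated best with the Control library of its own number in 1 of 3, 1 of 3 and 2 of 6 cases, in the same order. With the replicate block, limma called 0 members longer and 0 shorter in H3K9ac (492 and 22 at an unadjusted p under 0.05), the exact sign-flip p of the total was 0.25, the smallest that 3 pairs allow, neuron RNA gave 34 lower and 6 higher genes, and whole CA RNA gave 102 and 66.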

Other observations

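Some members lay at genes from the marker lists of glia and vessels. The nuclei were sorted as neuronal, and the cells that gave these peaks were not tested. Mbp, the myelin basic protein gene, had 6 members, with 20.9, 18.6 and 20.1 kb of H3K27ac in Control and 20.3, 21.9, 19.3 and 21 kb in cKO, and 4.57, 6.18, 6.79 and 6.61 kb of H3K9ac in Control and 7.62, 8.5 and 5.37 kb in cKO. The genotypes overlapped in both marks. Mbp RNA was lower in neuron Control than in whole CA Control, with a log2 fold change of −5.03 (edgeR adjusted p = 2.86e-13), and so was that of Slc1a2, the astrocyte glutamate transporter gene, at −3.65 (edgeR adjusted p = 5.35e-15). Pdgfrb, a pericyte receptor gene, stood at −3.32 (edgeR adjusted p = 3.02e-14).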
